A study of Homo sapiens with 6 samples.

Results

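The ZNF genes encode zinc finger proteins, most of them DNA-binding proteins of the C2H2 class. Their mRNA levels were followed in the colorectal cancer line HCT116 after knockdown of Matrin3, an RNA-binding protein of the nucleus and the product of MATR3. Genes were chosen by name (ZNF, a number and at most a further letter, with ZNF638 left out) and by level, a mean of at least 5 TPM over the 6 libraries. TPM is transcript abundance corrected for length and scaled so that all libraries have equal totals. The rule kept 203 of the 548 ZNF genes in tables of 56632 genes, and the other 345 were under the limit. The level that chose the genes is given here as a description, with no test.

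Cells of the siMatrin3 group received a pool of small interfering RNAs against Matrin3, and cells of the siCTRL group a negative control siRNA. All cells were of the same line and were otherwise not modified. The labels give 72 hours and a further 48 hours for the transfections, with 3 libraries of poly(A) RNA in each of the 2 groups. Per the study's methods, cells were reseeded 48 hours after the second transfection, and RNA was taken 3 days after it. The libraries held 40808173 to 54185650 expected counts, which are read counts that RSEM estimated per gene. MATR3 stood at 186.39, 180.25 and 176.46 TPM in siCTRL and at 95.17, 112.05 and 110.67 TPM in siMatrin3, or -0.93 on the log2 scale (SE 0.065, edgeR adjusted p = 7.67e-05). Knockdown was therefore partial at the mRNA level. Counts of MATR3 were whole numbers in 1 library, and its exons overlap another annotated gene of that name on the same strand. Of 12 epithelial markers, 6 reached a mean of 1 TPM, led by KRT8 at 1180 and KRT18 at 952 TPM. The summed epithelial markers ran from 2947 to 3098 TPM in siCTRL and from 2692 to 2918 TPM in siMatrin3, so the groups did not overlap, and the part of this in the results below was not tested. PTPRC, the pan-leukocyte marker, and the fibroblast genes COL1A2, DCN and LUM were at 0, while CD68 of the immune list stood at 14.5 and COL1A1 of the fibroblast list at 15.8 TPM. The neuron list, led by TUBB3 at 55.4 and SYT1 at 23.5 TPM, summed to 79.9 to 84.3 TPM in siCTRL and 75.9 to 78.1 TPM in siMatrin3, again without overlap and with its part in the results not tested. In such bulk libraries of a single line, fewer cells with a transcript and less of it per cell cannot be told apart.

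A C2H2 finger is a short module in which a pair of cysteines and a pair of histidines hold a zinc ion, and arrays of such fingers read a stretch of DNA. Many ZNF proteins also carry a KRAB box, which recruits the scaffold TRIM28 and, through it, histone methyltransferase SETDB1, HP1 proteins and other silencing factors, often to transposable elements. KRAB genes multiplied in tandem, and the largest set of clusters in the human genome lies on chromosome 19. Other ZNF proteins act in RNA handling, at the ribosome or on the mitotic spindle. Of the 203 genes, 199 were protein coding in GENCODE 44, and the other 4 were pseudogenes. A KRAB box was found in 97 of the coding genes and a SCAN domain, which pairs such proteins, in 15, and 102 coding genes had no KRAB box. KRAB genes held a median of 12 fingers and the other coding genes a median of 6.5, with a maximum of 36, and 4 coding genes (ZNF330, ZNF839, ZNF185 and ZNF503) matched the finger pattern nowhere.

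To show the module that the family shares, the coding sequence of a finger is given for 5 members that the results turn on, with the codons of the zinc-binding cysteines and histidines in capitals. They are finger 3 of the canonical transcripts, and finger 2 for ZNF207, and were read from GENCODE transcripts, 5′ to 3′.
ZNF655: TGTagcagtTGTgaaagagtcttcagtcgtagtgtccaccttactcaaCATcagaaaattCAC
ZNF195: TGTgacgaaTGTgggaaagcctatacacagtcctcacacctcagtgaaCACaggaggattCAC
ZNF83: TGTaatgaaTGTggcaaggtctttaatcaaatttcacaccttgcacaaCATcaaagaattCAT
ZNF217: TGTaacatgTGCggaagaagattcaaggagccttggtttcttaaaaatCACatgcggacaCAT
ZNF207: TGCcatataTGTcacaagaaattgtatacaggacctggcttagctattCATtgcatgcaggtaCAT
The capitals fall at the same spacing in ZNF655, ZNF195, ZNF83 and ZNF217, each 63 bases long. The finger of ZNF207 was 66 bases long, with a wider gap between its histidines. The bases between the second cysteine codon and the first histidine codon, where a finger holds its DNA contacts, differ among all 5.

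Promoter motifs of the members were counted as a description, and each was absent from most of their promoters. RefSeq promoters (GRCh38.p14, 250 bases before to 50 after the start) were at hand for 168 of the 199 coding genes, or 84.4%. The ETS motif CCGGAAGT, searched on both strands, was present in 22.0% of them, against 10.1% of 7715 other protein-coding genes at 5 TPM or more and 6.19% of all 15843 protein-coding promoters. It was in 25.9% of the 81 promoters of KRAB genes and in 18.4% of the 87 promoters of the others. CCAATCAG, a form of the NFY box, was found in 17.3% of KRAB promoters, in 5.75% of promoters of members without KRAB and in 5.15% of the other genes at 5 TPM or more. ACTACAANT, part of the ZNF143 motif, was in 8.33% of member promoters and 2.90% of those other genes. Shares were closer for CREB (TGACGTCA, 5.95% of members against 3.77%), NRF1 (GCGCATGCG, 4.76% against 4.10%) and YY1 (AAGATGGCG, 3.57% against 4.68%). The TATA box TATAAAAG was in 0 of 168 member promoters and 0.596% of the other genes. Matches of different motifs may overlap, and a match describes letters, not a bound site. Among members past the threshold of the knockdown comparison, the ETS motif was in 11.1% of the 9 promoters of genes that rose and in none of the 5 of genes that fell.

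**Figure D1:**
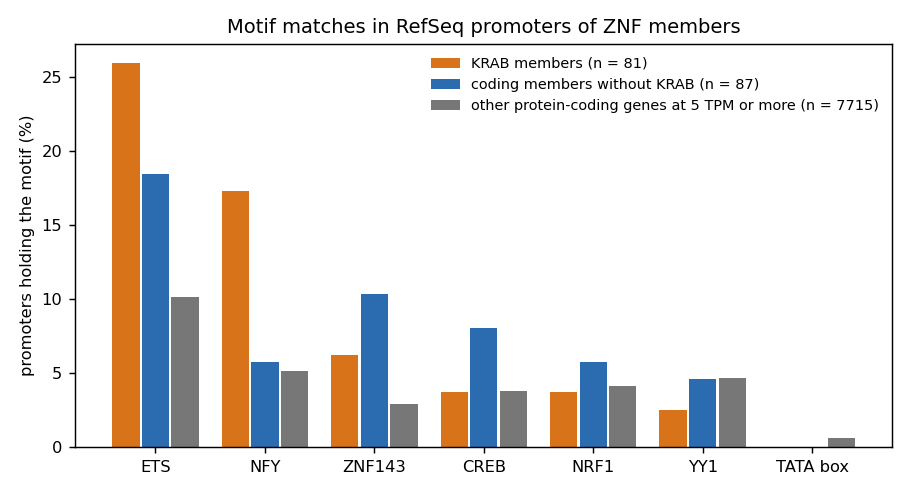
Share of RefSeq promoters (y axis, percent) that hold each motif (x axis) in KRAB members, coding members without KRAB and other protein-coding genes at 5 TPM or more, as bars. The ETS bars stand at 25.9%, 18.4% and 10.1%, and the NFY bar is tallest for KRAB members at 17.3%.

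Promoters of 3 members show these motifs in place, as the 250 bases before the RefSeq start, 5′ to 3′ on the strand of the gene, with motif matches in capitals. ZNF195 (chr11:3379147-3379396, minus strand) was the KRAB gene with the largest rise and holds the NFY box at 103 and 74 bases before the start. ZNF384 (chr12:6689376-6689625, minus strand) was among the members with the highest level and holds the ETS motif in a pair. ZNF180 (chr19:44500523-44500772, minus strand), at the lower end of the level range, holds a ZNF143 motif and an ETS motif, both on the opposite strand.
ZNF195: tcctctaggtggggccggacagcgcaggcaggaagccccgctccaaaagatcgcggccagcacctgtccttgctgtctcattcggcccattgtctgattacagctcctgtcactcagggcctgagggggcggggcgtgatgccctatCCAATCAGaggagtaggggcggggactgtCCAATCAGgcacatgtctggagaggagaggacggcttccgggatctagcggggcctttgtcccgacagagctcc
ZNF384: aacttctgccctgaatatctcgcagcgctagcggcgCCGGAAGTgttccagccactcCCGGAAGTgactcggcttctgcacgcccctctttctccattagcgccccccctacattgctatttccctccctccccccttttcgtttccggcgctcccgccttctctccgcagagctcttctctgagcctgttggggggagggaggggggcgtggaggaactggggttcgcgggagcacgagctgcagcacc
ZNF180: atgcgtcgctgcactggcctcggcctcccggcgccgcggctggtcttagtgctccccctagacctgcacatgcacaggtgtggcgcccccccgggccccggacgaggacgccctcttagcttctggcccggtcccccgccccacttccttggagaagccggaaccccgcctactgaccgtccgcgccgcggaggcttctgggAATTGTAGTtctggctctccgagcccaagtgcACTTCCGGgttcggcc

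Most members were expressed at a low level. Mean TPM ran from 5.005 to 110.02 with a median of 9.41, and 90 members reached 10 TPM, 35 reached 20 TPM and 6 reached 50 TPM. KRAB members had a median of 8.2 TPM and the other coding members 12.5 TPM. Summed over the 203 members, levels were 2879.5, 2941.8 and 2881.6 TPM in siCTRL and 2860.3, 2879.2 and 2883.6 TPM in siMatrin3. The groups overlapped, and the members took 0.626% to 0.644% of all counts in each library. In the tested members the lowest expected count in any library was 193, and the median over members of the lowest count was 859. The level limit cut through a dense range, with ZNF200 at 5.13, ZNF215 at 5.11, ZNF180 at 5.09, ZNF689 at 5.06 and ZNF517 at 5.01 TPM just inside. Just outside stood ZNF271P at 4.97, ZNF446 at 4.94, ZNF92 at 4.91, ZNF165 at 4.87 and ZNF174 at 4.85 TPM.

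The 8 members with the highest levels were not called. ZNF146, which consists of little but fingers, led with 113.63, 103.89 and 108.35 TPM in siCTRL and 109.14, 114.15 and 110.95 TPM in siMatrin3. These values overlapped (log2 fold change 0.09, SE 0.040, edgeR adjusted p = 0.166). ZNF207, a microtubule-binding protein that brings BUB3 to kinetochores, stood at 86.21, 86.14 and 87.20 TPM in siCTRL and at 89.73, 92.13 and 90.10 TPM in siMatrin3. Its groups did not overlap, yet the difference was small and did not pass (log2 fold change 0.08, SE 0.038, edgeR adjusted p = 0.19). ZNF664 had 90.91, 92.92 and 87.53 TPM in siCTRL and 81.78, 80.05 and 78.60 TPM in siMatrin3. Its TPM groups did not overlap, but the expected counts, which are not divided by length, gave a value of -0.05 on the log2 scale (SE 0.038, edgeR adjusted p = 0.465). The transcript length of ZNF664 averaged over its isoforms is taken up below. ZNF121, ZNF706, ZNF692, ZNF384 and ZNF768 followed at means of 79.9, 79.3, 54.4, 49.7 and 48.9 TPM, with log2 fold changes from -0.03 to 0.12 and edgeR adjusted p from 0.213 to 0.79.

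The next question was which members differ in mRNA level between siMatrin3 and siCTRL. ZNF655, ZNF195 and ZNF124 showed the largest rises, and ZNF704, ZNF251 and ZNF83 those that fell, and no member reached a log2 fold change of 1. Of 202 members tested, 12 rose and 10 fell at an edgeR adjusted p under 0.05, or 10.9%. This matches the background, as 11.0% of all 16786 genes tested were called (5.05% higher and 5.97% lower), and the share of called genes was 12.3% among genes at 5 TPM or more. Under upper quartile scaling the split of the calls was 10 higher to 12 lower among members and 636 higher of 1782 called among all genes, against 847 of 1849. The median log2 fold change was -0.0083 over the members and -0.0011 over all genes. All genes at 5 TPM or more had a median of 0.0186, with 745 of 10316 higher and 524 lower. Changes ran from -0.57 to 0.47, and 51 members (25.2%) had an unadjusted p under 0.05, against 26.0% of all genes tested and 29.1% of those at 5 TPM or more. TPM values of the groups did not overlap in 53 of 202 members, or 26.2%, against 25.1% of all genes tested. ZNF888 was the member not tested, since its 3.28 to 9.78 expected counts per library were too few, and its TPM of 4.95, 0.33, 5.22, 14.29, 3.08 and 16.09 rested on effective lengths as short as 11.5 bases.

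**Figure D2:**
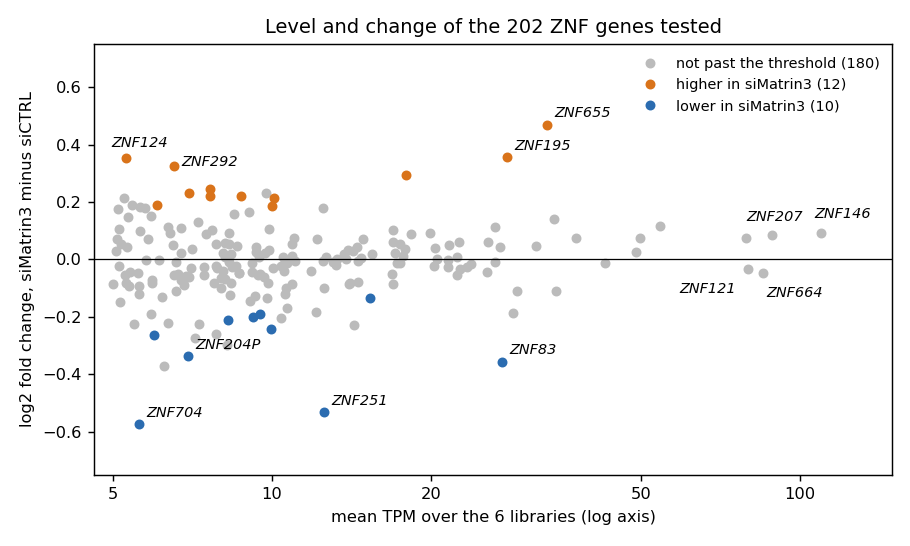
Mean TPM over the 6 libraries (x axis, log scale) against the log2 fold change of siMatrin3 minus siCTRL (y axis), with a point for each of the 202 members tested. The 12 members that rose and 10 that fell have means of at most 33.2 TPM, that of ZNF655, and the members above 70 TPM were not called.

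ZNF655 showed the largest rise. This gene (ENSG00000197343, chromosome 7, 99558406 to 99576453 in GRCh38), whose product is known to bind the exchange factor VAV1, had 26.59, 30.04 and 26.42 TPM in siCTRL and 38.56, 40.66 and 37.20 TPM in siMatrin3. All siMatrin3 libraries lay well above all siCTRL libraries, from 27.7 ± 2.04 to 38.8 ± 1.74 TPM (SD, n = 3). The log2 fold change was 0.47 (SE 0.047, edgeR adjusted p = 4.45e-04). Its exons overlap an unnamed gene on the same strand (ENSG00000272647), and its counts were whole numbers in 3 of 6 libraries. How many of its reads RSEM divided between genes was not measured. ZNF195 (ENSG00000005801, chromosome 11, 3339261 to 3379222), a KRAB protein with 9 fingers, had 24.07, 24.67 and 24.72 TPM in siCTRL and 31.87, 30.09 and 31.78 TPM in siMatrin3. The groups were far apart relative to their spread (log2 fold change 0.36, SE 0.045, edgeR adjusted p = 0.00139). ZNF217 (ENSG00000171940, chromosome 20, 53567071 to 53609907) is an oncoprotein amplified in breast and colorectal tumours that works with the CoREST and CtBP co-repressors. It had 16.88, 14.56 and 15.45 TPM in siCTRL and 19.84, 20.57 and 20.21 TPM in siMatrin3, without overlap (log2 fold change 0.30, SE 0.046, edgeR adjusted p = 0.00401).

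ZNF704, ZNF251 and ZNF83 showed the largest falls. ZNF704 (ENSG00000164684, chromosome 8) had 6.41, 5.69 and 7.90 TPM in siCTRL and 4.32, 4.08 and 5.14 TPM in siMatrin3. Every siMatrin3 library was below every siCTRL library (log2 fold change -0.57, SE 0.052, edgeR adjusted p = 2.44e-04), but on log2(TPM + 1) with limma the call was lost (adjusted p = 0.0934). ZNF251 (ENSG00000198169, chromosome 8), a KRAB protein with 12 fingers, had 14.95, 14.82 and 14.17 TPM in siCTRL and 9.96, 10.58 and 10.74 TPM in siMatrin3. Its libraries varied little within a group, and the log2 fold change was -0.53 (SE 0.045, edgeR adjusted p = 1.96e-04). ZNF83 (ENSG00000167766, chromosome 19, 52594060 to 52690559), a protein of 14 fingers without a KRAB box, had 29.78, 33.63 and 30.76 TPM in siCTRL and 25.56, 21.24 and 22.55 TPM in siMatrin3. The groups were apart (log2 fold change -0.36, SE 0.064, edgeR adjusted p = 0.00758), though its counts were whole in only 1 library and its exons overlap ENSG00000269825 on the same strand. The pseudogene ZNF204P (chromosome 6) had 7.97, 7.72 and 7.64 TPM in siCTRL and 5.94, 5.98 and 6.31 TPM in siMatrin3, and also fell (log2 fold change -0.34, SE 0.059, edgeR adjusted p = 0.00669). Its exon overlaps another annotated gene on the same strand.

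**Figure D3:**
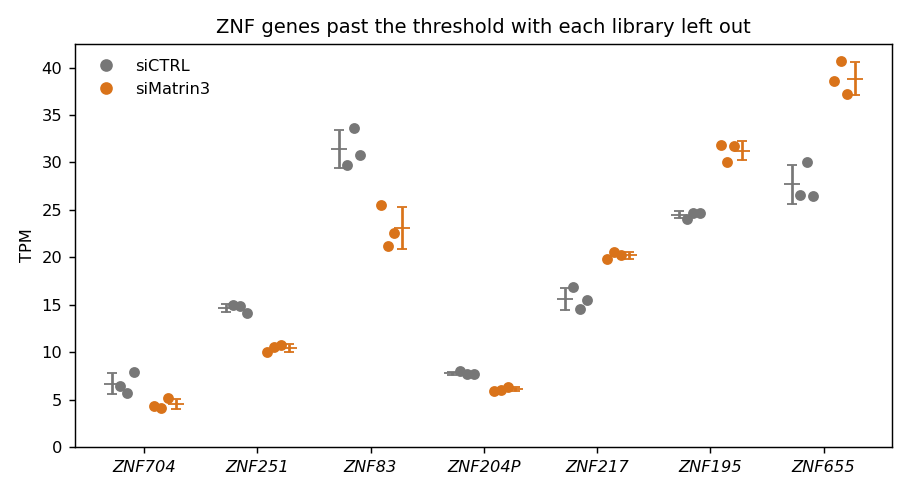
TPM (y axis) of the 7 members that passed the threshold with each library left out in turn, with a point per library for siCTRL and siMatrin3 and the mean with its SD beside the points. In each gene the siCTRL and siMatrin3 points do not overlap, and ZNF655 shows the widest gap in TPM.

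These 7 members passed whichever library was left out, and ZNF655, ZNF195, ZNF217, ZNF251 and ZNF83 passed in all 16 alternative settings. The other 15 called members failed without at least 1 library. Among those that rose, ZNF124, a KRAB protein, went from 4.57 ± 0.146 to 5.99 ± 0.435 TPM (SD, n = 3, log2 fold change 0.35, edgeR adjusted p = 0.0329). ZNF292, a large protein whose loss causes a neurodevelopmental disorder, went from 5.93 ± 0.841 to 7.12 ± 0.690 TPM (0.33 on the log2 scale, edgeR adjusted p = 0.0121). ZNF74, from the region deleted in DiGeorge syndrome, went from 7.07 ± 0.179 to 8.23 ± 0.177 TPM (0.24, edgeR adjusted p = 0.0111). ZNF746, a substrate of parkin, rose by 0.22 on the log2 scale (edgeR adjusted p = 0.0197). ZNF337 rose by 0.22, ZNF367 by 0.21, ZNF469, the gene of brittle cornea syndrome, by 0.19, and ZNF202, a KRAB and SCAN repressor of lipid genes, by 0.19, with edgeR adjusted p from 0.0165 to 0.0385. Counts of ZNF746 and ZNF337 were whole in no library.

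The remaining members that fell did so by little. ZNF45 (chromosome 19), a KRAB protein with 15 fingers, had 6.36, 6.33 and 6.78 TPM in siCTRL and 4.98, 5.93 and 5.55 TPM in siMatrin3 (log2 fold change -0.26, SE 0.063, edgeR adjusted p = 0.0244). ZNF621 stood at -0.24, the CtBP partner ZNF516 at -0.21, the KRAB gene ZNF791 (chromosome 19) at -0.20 and ZNF185, a LIM-domain protein of the actin cytoskeleton, at -0.19 on the log2 scale, with edgeR adjusted p from 0.022 to 0.0356. ZNF252P, named after its values were seen to complete the count, stood at -0.13 (edgeR adjusted p = 0.047). Its TPM groups overlapped, as did those of ZNF827, and it failed whichever library was left out. Without 1 library, ZNF74 failed only when siMatrin3 replicate 3 was left out (edgeR adjusted p = 0.0539) and ZNF469 only when siCTRL replicate 3 was (edgeR adjusted p = 0.0627). ZNF292 failed without either of these libraries (highest edgeR adjusted p 0.0632). In all, 14 of the 22 calls were lost without siMatrin3 replicate 3, 12 without siCTRL replicate 3, 11 without siMatrin3 replicate 1, 8 without replicate 2 of either group and 6 without siCTRL replicate 1.

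**Figure D4:**
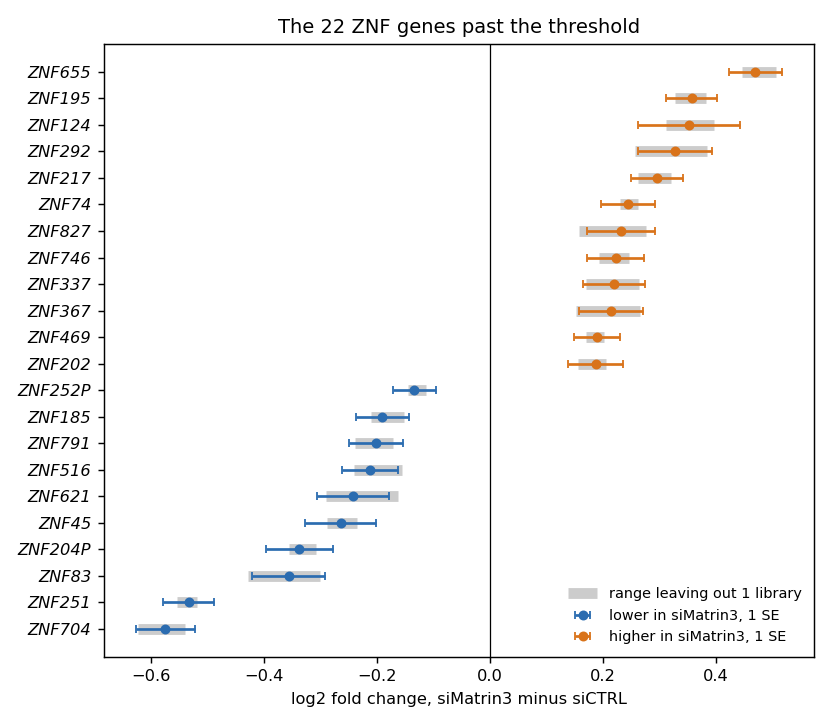
Log2 fold change of siMatrin3 minus siCTRL (x axis) for the 22 members past the threshold (y axis), with points for the estimate, whiskers of 1 SE and grey bars for the range when each library was left out. ZNF655 lies farthest right at 0.47 and ZNF704 farthest left at -0.57, and no bar crosses 0.

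Members with known roles were then described by list. Of 11 members in RNA handling and at the ribosome, 0 passed the test with edgeR and 3 (27.3%) had an unadjusted p under 0.05, near the 26.0% of all genes. They were ZNF326, which couples transcription elongation to splicing (log2 fold change 0.18, edgeR adjusted p = 0.0679), ZNF598, the ubiquitin ligase of collided ribosomes (0.14, edgeR adjusted p = 0.0808), and the nucleolar ZNF330 (-0.11, edgeR adjusted p = 0.0817). TPM did not overlap between groups for these 3 of the 11, against 25.1% of all genes tested. The list's median log2 fold change was 0.02. Of 20 listed chromatin partners, 17 were members, of which ZNF217 and ZNF827 rose and ZNF516 fell, with a list median of 0.0014. This is 17.6% called against 11.0% of all genes, in a list of 17, and 5 (29.4%) had an unadjusted p under 0.05 against 26.0%. ZNF827, which brings the NuRD complex to telomeres, had 7.28, 6.46 and 6.14 TPM in siCTRL and 7.64, 6.68 and 7.53 TPM in siMatrin3. Its TPM overlapped, while expected counts gave a value of 0.23 on the log2 scale (SE 0.060, edgeR adjusted p = 0.0343). None of the 9 widely expressed activators and GC-box binders passed with edgeR, and 1 had an unadjusted p under 0.05, ZNF263 (-0.11, edgeR adjusted p = 0.103). ZNF384 stood at 0.07 and ZNF131 at 0.06.

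Of 18 listed KRAB factors that bind transposable elements, 4 were members, and with edgeR 0 passed and 0 had an unadjusted p under 0.05. ZNF28 stood at -0.02, ZNF320 at -0.03 and ZNF84 at 0.02 on the log2 scale. For these 3 genes the sign was not stable, since it turned for ZNF28 and ZNF320 without siMatrin3 replicate 3 and for ZNF84 under upper quartile scaling. ZNF28 differed by scale, with 8.92, 8.73 and 8.64 TPM in siCTRL and 6.23, 6.77 and 7.65 TPM in siMatrin3 but an edgeR adjusted p of 0.837 on expected counts. The transcript length of ZNF28, averaged over its isoforms, was 2382, 2596 and 2616 bases in siCTRL. In siMatrin3 it was 3380, 3224 and 2704 bases, and TPM divides by length. Exons of ZNF28 overlap those of ZNF468 on the same strand. The silencing partners of the KRAB box were followed as a list of 34 genes, of which 33 were found and tested. DNMT3B, a de novo DNA methyltransferase, had 12.68, 13.35 and 12.92 TPM in siCTRL and 16.26, 15.08 and 14.70 TPM in siMatrin3 and rose without overlap (log2 fold change 0.25, SE 0.046, edgeR adjusted p = 0.0089). CBX5, an HP1 protein, and TRIM24, a relative of TRIM28, fell (-0.22 and -0.19, edgeR adjusted p = 0.0254 and 0.0469), with overlapping TPM for CBX5. The call of TRIM24 was lost with DESeq2 and whichever single library was left out. That of CBX5 was lost without siCTRL replicate 2 or 3 or siMatrin3 replicate 1 or 3, while DNMT3B passed without each library. The calls of DNMT3B, CBX5 and TRIM24 were all lost with limma on log2(TPM + 1) and log2(TPM + 0.1). MORC2, which acts with the HUSH silencing complex, stood at -0.15 (edgeR adjusted p = 0.0559). Of these 33 genes 9.09% passed, near the 11.0% of all genes. An unadjusted p under 0.05 was found in 14 (42.4%), against 26.0% of all genes and 29.1% of those at 5 TPM or more. The list's median log2 fold change was 0.07, with 25 positive values. Genes at 5 TPM or more had a median of 0.0186, with 5839 of 10316 positive. TRIM28 itself had 506.24, 566.71 and 564.66 TPM in siCTRL and 490.66, 564.89 and 575.58 TPM in siMatrin3.

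Members were next described by domain and position. Of 96 KRAB members tested, 6 rose and 4 fell (10.4%, median log2 fold change -0.02), and of 102 coding members without KRAB, 6 rose and 4 fell (9.8%, median -0.0015). Of 15 members with a SCAN domain, 1 rose and 0 fell with edgeR, and 5 (33.3%) had an unadjusted p under 0.05, against 26.0% of all genes tested. By number of fingers, 1 of 4 members with 0 fingers was called. Of 38 members with 1 to 4 fingers, 2 were higher and 1 lower (7.89%), and of 68 with 5 to 9, 7 were higher and 1 lower (11.8%). Of 55 with 10 to 14, 2 were higher and 3 lower (9.09%), and of 33 with 15 or more, 1 was higher and 2 lower (9.09%). Over all genes tested, 11.0% were called. By locus span, 1 of the 51 members with the shortest loci (966 to 13309 bases) was called. In the next quartiles 6 of 50 and 5 of 50 tested were called. Of the 51 with the longest loci (41606 to 246331 bases) 10 were called, 5 in each direction. An unadjusted p under 0.05 was found in 17.6% of the shortest quartile and 31.4% of the longest, against 26.0% of all genes tested. These shares did not rise at each step between the quartiles. Calls by locus span were not counted over all genes, so whether this difference is particular to the members was not tested. Of the ZNF genes under 5 TPM, 180 were tested, of which 1 rose and 6 fell (3.89%), with a median of -0.06. Of 46 ZBTB, ZSCAN, ZKSCAN and ZFP genes at 5 TPM or more, 1 rose and 1 fell (4.35%).

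On chromosome 19, which held 68 members and 47.4% of KRAB members against 21.6% of the other coding members, no member rose by the edgeR test, and 13 of the 67 tested (19.4%) had an unadjusted p under 0.05, against 26.0% of all genes. Of these 67, ZNF83, ZNF45 and ZNF791 fell (4.48%), against 12 that rose and 7 that fell among 135 members elsewhere (14.1%). Over all genes tested, 11.0% were called. The median log2 fold change was -0.04 on chromosome 19, with 48 of 67 values below 0, and 0.0091 elsewhere. Some smaller sets lay farther from 0, at -0.0832 on chromosome 8 (12 members, 0 higher and 3 lower) and 0.1599 on chromosome 20 (6 members, 2 higher and 0 lower). ZNF genes under 5 TPM had a median of -0.0667 on chromosome 19 (95 tested) and -0.032 elsewhere (85 tested). Over the libraries, the median of the chromosome 19 members relative to their siCTRL mean was -0.0386, 0.0325 and 0.0013 in siCTRL and -0.0490, -0.0194 and -0.0400 in siMatrin3 (log2 CPM). The groups overlapped, and whether this shift exceeds the spread between replicates was not tested. Leaving out siCTRL replicate 2 took the median to -0.0102. The count that fell was 5 without siCTRL replicate 1, 2 without siMatrin3 replicate 2 and 1 when any other single library was left out, and 1 to 7 over the 16 alternatives. The median stayed between this value and -0.0856, and 0 members rose, in all 16 alternatives. Other chromosome 19 genes at 5 TPM or more stood at a median of 0.03 over 647 genes, with 41 higher and 14 lower.

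KRAB members away from chromosome 19 were described in the same way. Of 51 such members, 6 rose and 2 fell (15.7%), against 11.0% called of all genes tested and 12.3% of those at 5 TPM or more. The median of these KRAB members was 0.0050, 0.0238 and -0.0186 in siCTRL and 0.0403, 0.0503 and 0.0399 in siMatrin3, without overlap. Their median log2 fold change of 0.04 lay between 0.0232 and 0.0563 in the 16 alternatives, while the count of those that rose ran from 1 to 7 and fell to 2 without siCTRL replicate 3, siMatrin3 replicate 1 or siMatrin3 replicate 3. Crossing KRAB with chromosome was done after values were seen, and the difference between the sets was not tested. The KRAB members on chromosome 19, 45 in number, had a median of -0.05, with 0 higher and 2 lower. The 80 coding members without KRAB elsewhere had a median of 0.0029, with 6 higher and 3 lower (11.2%). All genes at 5 TPM or more had a median of 0.0186.

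**Figure D5:**
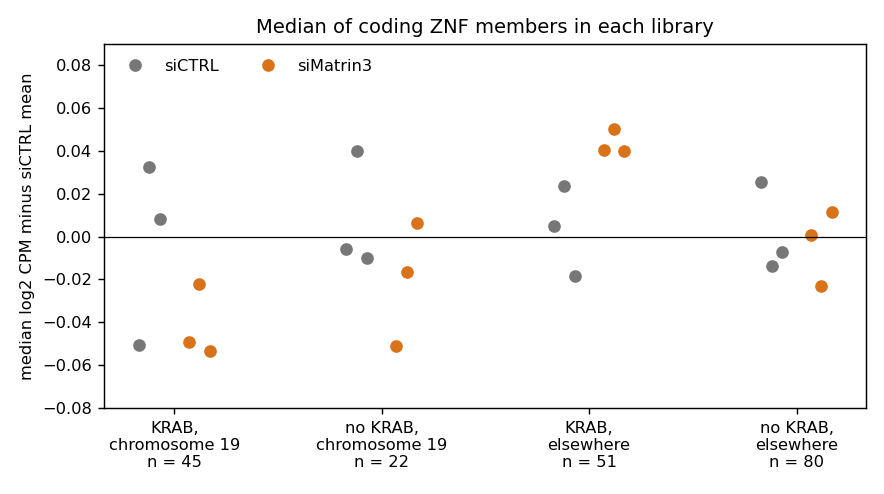
Median over the coding members of each set of log2 CPM minus the siCTRL mean (y axis) in each library, for members with and without a KRAB box on chromosome 19 and elsewhere (x axis). The siMatrin3 points lie above the siCTRL points without overlap for KRAB members elsewhere, from 0.0399 to 0.0503, and the groups overlap in the other 3 sets.

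Last, a change of isoform was looked for through the transcript length that RSEM averages over the isoforms of a gene, weighted by their abundance. Of 194 members tested with limma on log2 length, 0 passed an adjusted p under 0.05 and 12 (6.19%) had an unadjusted p under 0.05. Of all 11984 genes, 1 passed (0.00834%), and 6.09% had an unadjusted p under 0.05. ZNF664 came closest, with a mean length of 3769 ± 22.4 bases in siCTRL and 4040 ± 24.3 bases in siMatrin3 (SD, n = 3, log2 difference 0.10, limma adjusted p = 0.346). This difference in length runs beside its lower TPM at nearly level counts, since TPM divides by length. ZNF462 (0.12), ZNF770 (0.06), ZNF268 (0.25) and ZNF652 (0.14) followed, all with a longer mean transcript in siMatrin3. No member passed in any alternative for length.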

How the data were processed

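Per the labels, HCT116 poly(A) RNA was sequenced in 3 siCTRL and 3 siMatrin3 libraries. Tools in the submitters' processing notes are cutadapt, STAR 2.5.1 and RSEM, on hg19. For each library the authors deposited expected counts (estimated counts, reads shared between genes being divided), TPM, which the authors scaled to one total, FPKM, which the deposited tables scale by length and library size and which was not used, and average transcript lengths. GENCODE 44 (GRCh38) gave names, positions and domains, so coordinates are not on the build of the tables. The study's methods call the replicates biological, without naming separate cultures, and p-values measure the spread between these libraries.

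Expected counts were rounded and filtered with filterByExpr. After TMM scaling, the two-sided quasi-likelihood test of edgeR 4.0.16 (R 4.3.3) was run over all 16786 genes, with Benjamini-Hochberg adjustment and a threshold of 0.05. Library medians used log2 CPM (prior count 2). Length was tested with limma 3.58.1 on log2 length of genes with at least 2 transcripts and 50 counts in every library. Counts within 0.005 of a whole number were called whole. Of the members, 46.8% had whole counts in all 6 libraries against 56.3% of all genes tested, and 61 had whole counts in none. A count that is not whole can mark reads divided between genes, but not how many. Exons of 52 members overlap another gene on the same strand. Fingers were found by pattern in translated canonical transcripts, and KRAB and SCAN by profile search (pyhmmer 0.12.3, E-value 0.001) from ZNF10 and ZNF24.

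The members and lists were chosen with earlier results of these data known. Named were called members with groups apart (at most 12 each way), the 8 highest, 5 on each side of the limit, up to 3 per role list and 4 co-repressors. Alternatives were RLE and upper quartile scaling, other filters, a replicate block, a length offset, DESeq2 1.42.0, limma on log2(TPM + 1) and log2(TPM + 0.1), leaving out each library, other thresholds and, chosen after seeing the data, leaving out replicate 1 of both groups. The steps were tested on simulated data.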

Additional observations from a re-analysis of the deposited data

How the results depend on the processing

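Against 12 members higher, 10 lower and a median log2 fold change of -0.0083, the counts without 1 library each were 5 to 10 higher and 4 to 10 lower, and the median -0.0115 to 0.0036. Upper quartile scaling gave a median of -0.0265. The length offset gave 4 higher, limma on log2(TPM + 1) 3 higher and 2 lower (median -0.0241), and limma on log2(TPM + 0.1) 3 and 3 (median -0.0268). Without replicate 1 of both groups, 6 were higher. At an adjusted p under 0.01, 3 were higher and 4 lower. A limit of 1 TPM gave 16 lower (median -0.0252), and one of 10 TPM gave 5 higher and 3 lower (median 0.0007). The causes were not tested, beyond the fewer samples or genes used. No called member changed sign. Among members not called, signs turned for ZNF121 (0.0262) and ZNF320 (0.0172) without siCTRL replicate 2, for ZNF28 (0.0056) and ZNF320 (0.0238) without siMatrin3 replicate 3, and for ZNF84 under upper quartile scaling (-0.0006), without siMatrin3 replicate 1 (-0.0070) and without replicate 1 of both groups (-0.0149). Without 1 library each, these genes ranged from -0.0904 to 0.0262 (ZNF121), -0.0529 to 0.0056 (ZNF28), -0.0588 to 0.0238 (ZNF320) and -0.0070 to 0.0313 (ZNF84). The number of members changed in transcript length was 0 throughout.

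The replicate numbers are shared between groups, and the deviations of same-numbered libraries correlated at 0.513, 0.188 and -0.029 over 10303 genes. Libraries of unlike number correlated at -0.493 to 0.461. The main setting did not take the numbers as pairs, and whether replicate 1 of the groups shared a source of variation was not tested. With a replicate block, 16 members were lower and 15 higher, and 2716 of all genes were called. All-gene calls numbered 1849 in the main setting, 791 with the length offset, 437 and 429 with limma on log2(TPM + 1) and log2(TPM + 0.1), 561 at an adjusted p under 0.01, and 759 to 1599 without 1 library.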
